A study of Rattus norvegicus with 6 samples.

Results

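Serotonin reaches the nucleus accumbens in fibres from the raphe nuclei and acts there through a family of receptors, nearly all of them coupled to G proteins. Htr1 receptors couple to Gi and lower cyclic AMP, Htr2 receptors couple to Gq and activate phospholipase C, and the Htr4, Htr6 and Htr7 receptors couple to Gs and raise cyclic AMP. Most neurons of this region are GABAergic spiny projection neurons, classed by their dopamine receptor gene, Drd1 or Drd2. The genes described here are the Gi-coupled Htr1b and Htr1f, the Gq-coupled Htr2a and Htr2c, and the Gs-coupled Htr4, Htr6 and Htr7. They were chosen by symbol as 7 genes of the 25629 in the deposited gene table, which holds 14 serotonin receptor genes in all.

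Nuclei were taken from accumbens punches of Sprague-Dawley rats aged 90 to 120 days. Rats of both groups had self-administered heroin for 7 days at a fixed ratio of 1 response and for 4 days at a ratio of 3, had a progressive ratio test on day 12, and returned to the ratio of 3 on days 13 and 14. After the last session they received saline (3 libraries, replicates 1 to 3) or the opioid receptor antagonist naloxone (3 libraries, replicates 4 to 6), and the animals were killed 1 h later. Tissue of 12 rats, 6 of each sex, was combined into the 6 libraries, each of which holds male and female nuclei. Both groups thus share the heroin history, and no library of animals without heroin was analysed here. The p-values below measure the spread between such pooled libraries.

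The 6 libraries held between 8094 and 15020 barcodes and between 55739350 and 76272798 unique molecular identifiers (UMIs, the tags that count RNA molecules). Naloxone replicate 5 stood apart, with a median mitochondrial share of 0.565% against 0.154% to 0.345% in the other libraries. Of 58847 nuclei used, 45000 (76.5%) fell in 14 classes named from marker genes, and "-like" marks that a name rests on those markers only. A further 13 clusters with 9788 nuclei stayed unnamed and are called by a leading gene. Another 6 clusters (4059 nuclei) were set aside as mixed. Among these, clusters of 238 and 128 nuclei had markers of other lineages. The rest were set aside because at least 25% of their nuclei held both Xist and Y-linked UMIs. Levels are CPM, the depth-scaled unit in which a gene's UMIs are divided by all UMIs of a class in a library, with the mean ± SD over 6 libraries unless another n is given. CPM were not scaled to gene length, so each gene was compared between classes and never with another gene.

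Some markers went against a class name. Marker levels in this paragraph are CPM of UMIs pooled over all libraries, not means over libraries, and have no spread. Eya1 was at 0.233 CPM in the Drd1-like class, Rxfp1 at 0.933 CPM in the Drd3 neuron-like class and Foxj1 at 0 in the ependymal-like class. Ebf1 was at 106 CPM in Drd1-like and 3021 CPM in mural-like nuclei, and Isl1 at 58.2 CPM in Drd1-like and 221 CPM in Drd3 neuron-like nuclei. Cpne4 was at 405 CPM in Drd3 neuron-like and 1976 CPM in Pax6-led nuclei, and Col11a1 at 156 CPM in Casz1-like and 1143 CPM in ependymal-like nuclei. Other markers too peaked outside their class. Drd1 itself was a little higher in Casz1-like spiny neurons (35.7 CPM) than in Drd1-like ones (31.7 CPM), and Bnc2 was higher in the unnamed Arhgap15-led cluster (236 CPM) than in the Bnc2 GABA neuron-like class (189 CPM). The 4 measured microglia markers were highest in that Arhgap15-led cluster, with Csf1r at 1076 CPM. The choline transporter gene Slc5a7 peaked at 617 CPM in the Slc5a7-led cluster, and Kit at 196 CPM in the Maf-led cluster.

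The receptor genes differed in where they were highest. Htr2c and Htr2a were highest in somatostatin interneuron-like nuclei and next in Drd2-like spiny neurons, Htr4 was highest in Drd3 neuron-like nuclei, and Htr7 was highest in several unnamed neuron clusters and low in Drd1-like and most Drd2-like spiny neurons, apart from an Itga11-led part of the Drd2-like class. Htr1b and Htr6 were highest in Drd1-like and Drd2-like spiny neurons respectively, at low levels, and Htr1f was sparse throughout. The heat map of mean levels by class sets all 7 genes side by side.

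**Figure D1:**
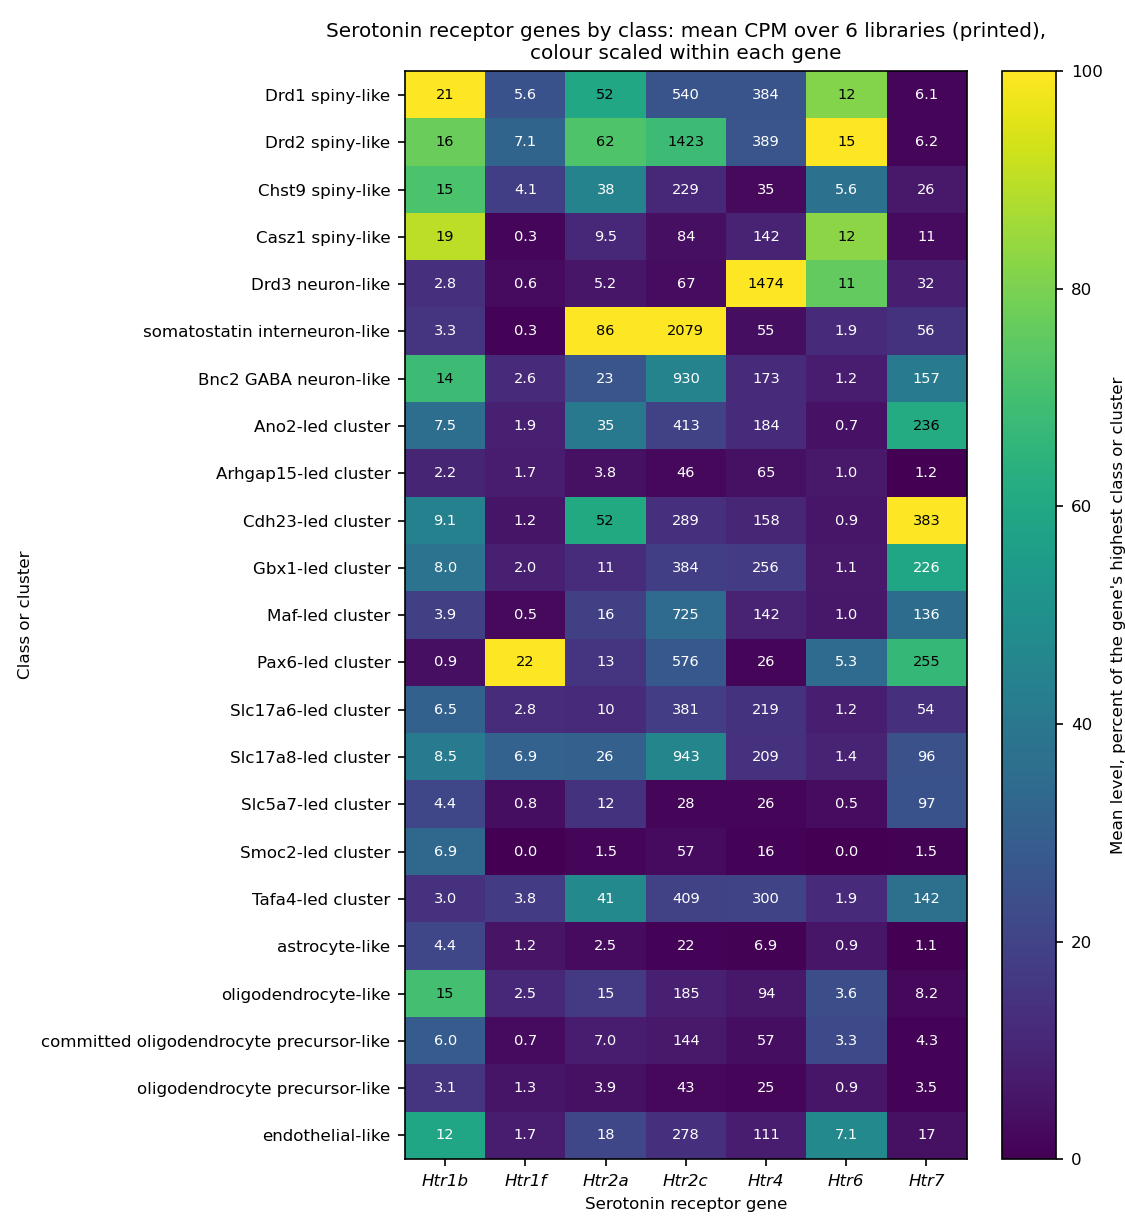
Mean level of each receptor gene (columns, CPM over 6 libraries, printed in each cell) in 12 named classes and 11 unnamed clusters with at least 20 nuclei in every library (rows). Colour gives the percent of that gene's own highest mean: Htr4 peaks in Drd3 neuron-like nuclei at 1474 CPM, Htr2c in somatostatin interneuron-like nuclei at 2079 CPM and Htr7 in the unnamed Cdh23-led cluster at 383 CPM.

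Htr1b (ENSRNOG00000013042) encodes a Gi-coupled receptor known as a presynaptic autoreceptor and heteroreceptor. Drd1-like spiny neurons had the highest mean (20.9 ± 3.85 CPM), followed by Casz1-like (18.8 ± 2.58), Drd2-like (16.1 ± 3.15) and Chst9-like (14.97 ± 1.04 CPM) ones. These 4 spiny classes overlapped, and no step between neighbours went the same way in 6 of 6 libraries. Drd1-like nuclei supplied 32.5 ± 5.88% of all Htr1b UMIs and made up 13.1% of nuclei. Drd3 neuron-like (2.84 ± 2.02 CPM) and somatostatin interneuron-like nuclei (3.26 ± 2.05 CPM) had little. Oligodendrocyte-like nuclei had 14.6 ± 2.24 CPM, about the level of Chst9-like spiny neurons.

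Htr1f (ENSRNOG00000000716), the other Gi-coupled member and a target of antimigraine drugs, had 1408 UMIs in all nuclei together. Drd2-like spiny neurons had 7.08 ± 1.28 CPM and Drd1-like ones 5.55 ± 1.40 CPM. The unnamed Pax6-led cluster had the highest mean, 22.02 ± 14.3 CPM, and lay above Drd2-like nuclei in 6 of 6 libraries. That value rests on 29 UMIs in 166 nuclei, and its libraries ran from 7.11 to 47.6 CPM. Casz1-like spiny neurons held 6 Htr1f UMIs, with none in 3 of 6 libraries.

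Htr2a (ENSRNOG00000010063) encodes the Gq-coupled receptor through which classical psychedelics act. Somatostatin interneuron-like nuclei had 86.1 ± 12.7 CPM, and Drd2-like spiny neurons had 62.5 ± 7.51 CPM, lower in 6 of 6 libraries. Drd1-like spiny neurons (51.8 ± 4.46 CPM) were at the level of the unnamed Cdh23-led cluster (52.4 ± 11.8 CPM), and Chst9-like ones had 38.4 ± 6.19 CPM. Casz1-like spiny neurons (9.52 ± 4.28 CPM) and Drd3 neuron-like nuclei (5.15 ± 1.69 CPM) were lower on average than oligodendrocyte-like nuclei (14.5 ± 6.69 CPM).

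Htr2c (ENSRNOG00000030877), the other Gq-coupled receptor gene, whose transcript is known to undergo A-to-I editing, was spread over many neuron classes. In somatostatin interneuron-like nuclei the saline libraries had 2319, 1815 and 1904 CPM and the naloxone libraries 2303, 1906 and 2228 CPM. In Drd2-like spiny neurons the same libraries had 1421, 1216 and 1472 CPM, and 1501, 1433 and 1495 CPM. Every library was therefore higher in the somatostatin class, by 1.46-fold on the means. The Slc17a8-led cluster (943 ± 123 CPM), Bnc2 GABA neuron-like nuclei (930 ± 139 CPM) and the Maf-led cluster (725 CPM) came next, ahead of Drd1-like spiny neurons (540 ± 57.6 CPM).

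Chst9-like spiny neurons had 229 ± 48.2 CPM of Htr2c and Casz1-like ones 84.2 ± 28.0 CPM, lower in 6 of 6 libraries. Drd3 neuron-like nuclei (67.3 ± 26.9 CPM) and the Slc5a7-led cluster (28.0 ± 22.2 CPM) had lower means still. Drd2-like spiny neurons supplied 33.2 ± 4.09% of all Htr2c UMIs from 8.81% of nuclei.

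Htr4 (ENSRNOG00000019134), a Gs-coupled receptor gene, was highest in Drd3 neuron-like nuclei, a class led by Adamtsl1. The saline libraries there had 1526, 1362 and 1521 CPM and the naloxone libraries 1596, 1318 and 1524 CPM. No other named class or unnamed cluster came near these values. Drd2-like (389 ± 38.7 CPM) and Drd1-like (384 ± 40.2 CPM) spiny neurons followed and overlapped, with the Tafa4-led cluster at 300.2 ± 16.6 CPM below them. Casz1-like spiny neurons had 142 ± 39.7 CPM and Chst9-like ones 35.0 ± 4.94 CPM. Drd3 neuron-like nuclei supplied 11.4 ± 3.09% of all Htr4 UMIs from 3.53% of nuclei.

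The class means joined unlike nuclei, which is shown by setting the clusters of a class side by side. These pairs were chosen after their values had been seen, so they are a description with no test. The receptor genes had been kept out of the genes used for clustering. The Drd1-like class held a Plcz1-led cluster of 2790 nuclei and an Il20ra-led cluster of 4909 nuclei. Htr4 was at 56.7, 62.0 and 52.9 CPM (saline) and 56.0, 58.4 and 54.1 CPM (naloxone) in Plcz1-led nuclei. In Il20ra-led nuclei it was at 604, 589 and 601 CPM (saline) and 494, 518 and 503 CPM (naloxone). The Il20ra-led mean was 9.73-fold higher, with no overlap between the clusters. Htr2c went the other way, at 814 ± 98.0 CPM in Plcz1-led and 401 ± 55.8 CPM in Il20ra-led nuclei, lower in Il20ra-led nuclei of 6 of 6 libraries. Htr1b (14.0 against 24.3 CPM), Htr2a (41.3 against 57.1) and Htr6 (9.95 against 13.5 CPM) were higher in Il20ra-led nuclei of every library.

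The Drd2-like class held a Drd2-led cluster of 4800 nuclei and an Itga11-led cluster of 429 nuclei. Nearly all of its Htr7 lay in the smaller one, which had 81.1, 67.5 and 72.6 CPM after saline and 89.4, 38.7 and 42.6 CPM after naloxone, beside 1.17 ± 0.454 CPM in Drd2-led nuclei. Htr1b was also higher in Itga11-led nuclei of 6 of 6 libraries (34.7 ± 9.05 against 14.6 CPM). Htr2c, Htr4, Htr6 and Htr1f were lower there in every library, with Htr2c at 1094 against 1451 CPM.

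The Chst9-like class divided in a similar way for Htr7. Its Chst9-led cluster (3413 nuclei) had 10.0 ± 2.49 CPM and its Col6a1-led cluster (470 nuclei) 105 ± 20.7 CPM. The Col6a1-led nuclei also had more Htr4 (113 ± 18.7 against 18.6 ± 3.24 CPM), Htr2c (561 ± 145 against 159 ± 29.5 CPM) and Htr2a (61.4 against 34.2 CPM) in 6 of 6 libraries, and less Htr1b (4.92 against 17.0 CPM). Chst9-like spiny neurons carry Oprm1, the mu opioid receptor gene, at 242 CPM (UMIs pooled over all libraries), the highest level of any class or cluster. Oprm1 is among the markers that named this class, so its level there is no separate finding.

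**Figure D2:**
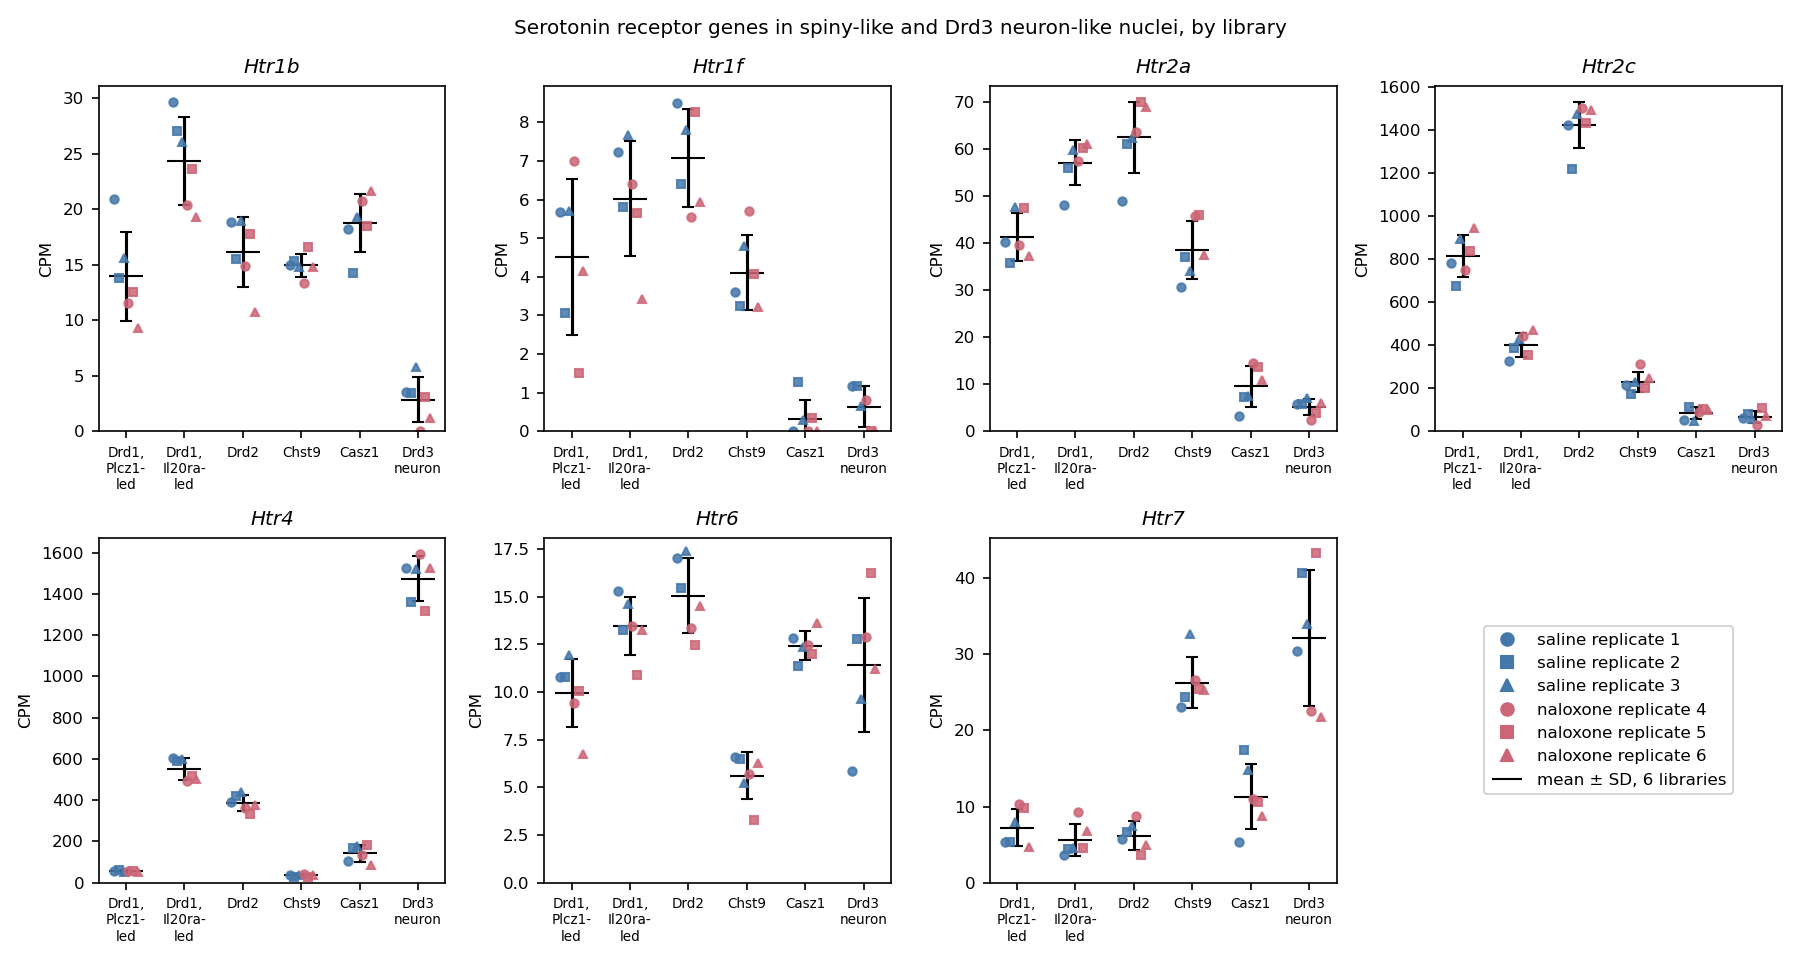
Level (CPM, linear axis from 0) of each receptor gene in each library, in the Plcz1-led and Il20ra-led clusters of Drd1-like spiny neurons, in Drd2-like, Chst9-like and Casz1-like spiny neurons and in Drd3 neuron-like nuclei. Blue marks saline and red naloxone libraries, and bars give the mean ± SD of 6 libraries; Htr4 separates Il20ra-led from Plcz1-led nuclei (551 against 56.7 CPM), and Htr2c is highest in Drd2-like nuclei.

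Htr6 (ENSRNOG00000049761), a Gs-coupled receptor gene known from the striatum, was highest in Drd2-like spiny neurons at 15.04 ± 1.97 CPM, above Casz1-like ones (12.4 ± 0.757 CPM) in 6 of 6 libraries. Drd1-like (12.2 ± 1.30 CPM) and Drd3 neuron-like (11.4 ± 3.51 CPM) nuclei overlapped with the Casz1-like class. Chst9-like spiny neurons had 5.605 CPM, and somatostatin interneuron-like and Bnc2 GABA neuron-like nuclei had 1.87 and 1.16 CPM. Drd1-like and Drd2-like nuclei supplied 34.7% and 26.4% of all Htr6 UMIs.

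Htr7 (ENSRNOG00000018827), the remaining Gs-coupled member, was highest in the unnamed Cdh23-led cluster, with 387, 403 and 341 CPM after saline and 366, 389 and 412 CPM after naloxone. The Pax6-led (255 ± 38.2 CPM), Ano2-led (236 ± 20.9 CPM) and Gbx1-led (226 ± 14.3 CPM) clusters followed. Among named classes the highest was Bnc2 GABA neuron-like, at 157 ± 32.6 CPM. The Maf-led (136 CPM) and Slc5a7-led (97.2 CPM) clusters, which carry interneuron markers, lay above somatostatin interneuron-like nuclei (55.6 ± 19.6 CPM). Chst9-like spiny neurons had 26.2 ± 3.35, Drd2-like ones 6.20 ± 1.87 and Drd1-like ones 6.08 ± 1.91 CPM. The Cdh23-led cluster supplied 18.4 ± 2.68% of all Htr7 UMIs from 1.79% of nuclei.

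Neighbours in the order of means were compared with an exact permutation test (sign flips, two-sided, 6 libraries), 22 pairs for each gene and 154 in all. The smallest p this test allows is 0.0312, and after Benjamini-Hochberg adjustment over the 154 the lowest was 0.301. With 6 libraries and so many pairs the adjusted test could hardly pass even for the widest step, so it says nothing of which neighbours differ, and the counts of libraries are given instead. The step went the same way in 6 of 6 libraries for 6 pairs of Htr4, 4 of Htr7, 2 each of Htr1f and Htr2c, 1 each of Htr2a and Htr6 and 0 of Htr1b.

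Receptor UMIs were also found in glia, and their levels are set beside those of neurons because RNA from other cells can enter a droplet; how much of them came that way was not tested. Astrocyte-like nuclei had 22.3 ± 5.59 CPM of Htr2c and 6.93 CPM of Htr4, and oligodendrocyte precursor-like nuclei had 42.9 and 24.9 CPM. Oligodendrocyte-like nuclei had more, 185 ± 57.4 CPM of Htr2c and 94.3 ± 26.2 CPM of Htr4. Within that class 760 nuclei of 1 cluster had 578 CPM of Htr2c and 261 CPM of Htr4. They were deeper (median 5670.5 UMIs) and 24.6% of them held both Xist and Y-linked UMIs, against 4.20% of all named nuclei. Without them the oligodendrocyte-like levels were 103 ± 30.2 CPM of Htr2c and 57.1 ± 27.7 CPM of Htr4. Endothelial-like nuclei had 278 ± 109 CPM of Htr2c and 111 ± 57.5 CPM of Htr4. Committed oligodendrocyte precursor-like nuclei had 144 ± 82.8 and 56.7 ± 38.0 CPM. Beside these, Htr2c was at 229 CPM in Chst9-like and 84.2 CPM in Casz1-like spiny neurons. Htr4 UMIs stood to Htr2c UMIs as 0.478 to 1 over all nuclei. The ratio was 0.304 in astrocyte-like, 0.366 in committed oligodendrocyte precursor-like, 0.460 in endothelial-like, 0.467 in ependymal-like, 0.556 in oligodendrocyte precursor-like, 0.509 in oligodendrocyte-like and 0.794 in mural-like nuclei. In the Arhgap15-led cluster it was 1.57, from 160 Htr4 and 102 Htr2c UMIs. These ratios are of UMIs pooled over all libraries, without a spread. Some rest on few Htr4 UMIs, 87 in astrocyte-like and 81 in mural-like nuclei, and whether the ratios differ was not tested.

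To compare how many nuclei carried a receptor UMI, every nucleus was thinned to 1000 UMIs, since the median depth ran from 1685 UMIs in oligodendrocyte-like to 9075 in Drd1-like nuclei. Nuclei below 1000 UMIs were left out, 15.8% of oligodendrocyte-like and at most 1.63% of spiny-like, somatostatin interneuron-like and Drd3 neuron-like ones. Htr2c was found in 72.3 ± 3.26% of somatostatin interneuron-like (median depth 6309.5 UMIs), 68.7 ± 2.27% of Drd2-like (8334 UMIs) and 33.6 ± 3.55% of Drd1-like nuclei, against 6.84 ± 1.45% of oligodendrocyte-like nuclei. Before thinning these shares were 89.5%, 97.0%, 68.8% and 10.5%. Htr4 was found in 73.3 ± 2.56% of Drd3 neuron-like (median depth 3169 UMIs) and 3.76 ± 1.09% of oligodendrocyte-like nuclei, or 94.0% and 6.30% before thinning.

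Htr7 was found in 28.3 ± 1.65% of Cdh23-led nuclei (84.3% before thinning, median depth 8551 UMIs). In Drd1-like spiny neurons it was in 0.594% of nuclei, close to the oligodendrocyte-like 0.546% and above the astrocyte-like 0.111%. The Drd2-like share of 0.669% averages the few Itga11-led nuclei, which carry Htr7, with the many Drd2-led ones, which nearly lack it. Htr2c (2.58%) and Htr1b (0.342%) in Drd3 neuron-like nuclei were below the oligodendrocyte-like 6.84% and 1.24%. These shares were close to the astrocyte-like 2.13% and 0.311% (median depth 2452 UMIs), and how much of them came from other cells was not tested. Htr2a in Casz1-like spiny neurons (0.638%) lay between the oligodendrocyte-like share with (0.763%) and without (0.589%) the cluster of 760 nuclei, and above the astrocyte-like 0.155%. Htr2c in Casz1-like (5.40%) and Htr4 in Chst9-like spiny neurons (2.74%) were below the oligodendrocyte-like shares of 6.84% and 3.76%. Without the cluster of 760 nuclei those shares were 4.65% and 2.76%, so that Htr2c in Casz1-like nuclei lay above and Htr4 in Chst9-like nuclei beside them. Htr1b in Drd1-like (2.05%) and Htr6 in Drd2-like spiny neurons (1.499%) were above the oligodendrocyte-like 1.24% and 0.190%.

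**Figure D3:**
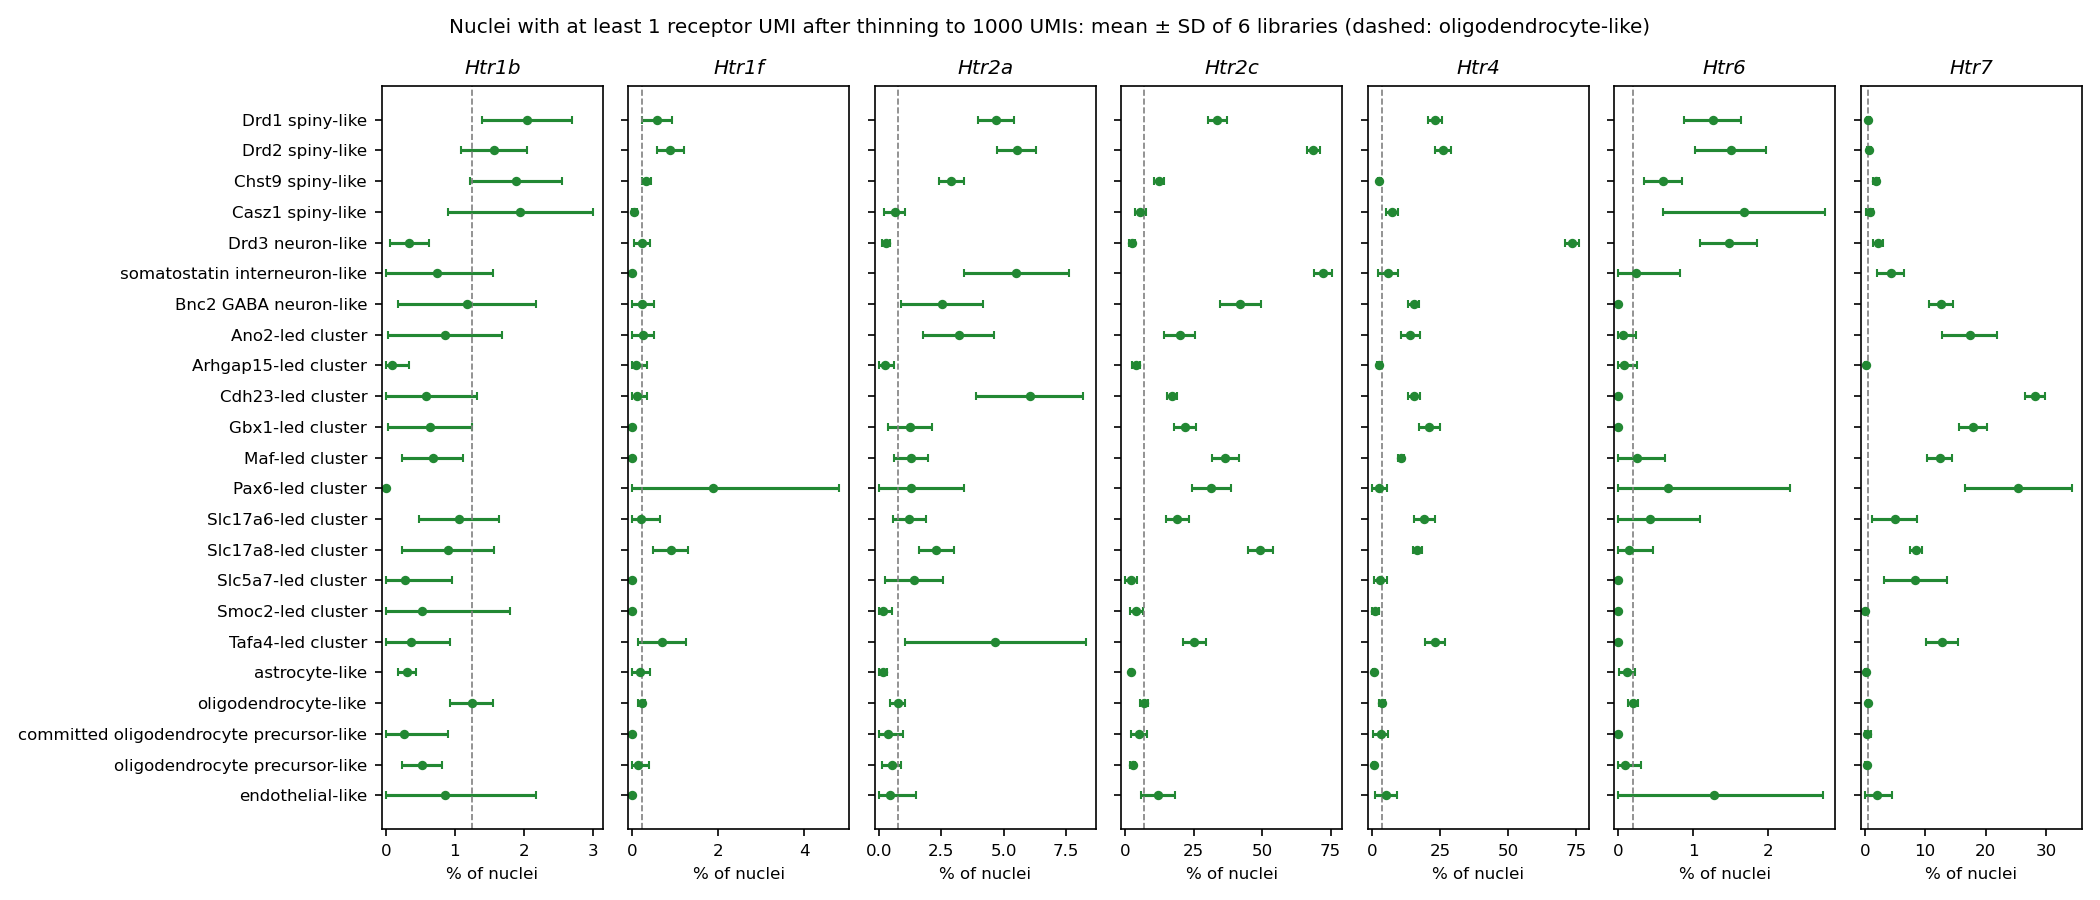
Percent of nuclei with at least 1 UMI of each receptor gene after thinning to 1000 UMIs (points: mean of 6 libraries; bars: SD; dashed line: oligodendrocyte-like share). Axes differ between panels; Htr2c reaches 72.3% in somatostatin interneuron-like and Htr4 73.3% in Drd3 neuron-like nuclei, whereas the class shares of Htr7 in Drd1-like (0.594%) and Drd2-like (0.669%) spiny neurons lie near the dashed line.

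Spiny classes were then compared across all genes with edgeR's quasi-likelihood test on summed counts, the library as a block and Benjamini-Hochberg adjustment. Drd2-like and Drd1-like spiny neurons differed in 5 of 7 receptor genes, where 23.2% of the 13615 genes tested were called. Htr2c was higher in Drd2-like nuclei by 1.41 ± 0.0315 (log2 ± SE, edgeR adjusted p = 8.81e-19), Htr6 by 0.31 ± 0.0685 and Htr2a by 0.28 ± 0.0428. Htr1b was lower (-0.37 ± 0.0674, edgeR adjusted p = 0.000216). Htr4 (0.02 ± 0.0321) and Htr7 (0.05 ± 0.137) were not called. Both classes join unlike clusters for these 2 genes. Htr4 was at 551 CPM in Il20ra-led and 56.7 CPM in Plcz1-led Drd1-like nuclei, and at 397 CPM in Drd2-led nuclei. Htr7 was at 65.3 CPM in Itga11-led and 1.17 CPM in Drd2-led nuclei. The median of the 7 differences was 0.28, against 0.00437 over all genes.

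The call of Htr1f in that comparison was marginal (0.38 ± 0.125, edgeR adjusted p = 0.0304). Leaving out saline replicate 1 ended it (0.39, adjusted p = 0.0618), as did leaving out saline replicate 2 (0.38, adjusted p = 0.0690), naloxone replicate 5 (0.27, adjusted p = 0.158) or naloxone replicate 6 (0.33, adjusted p = 0.0858), and edgeR's adjusted p and DESeq2's ran from 0.00677 to 0.188 over the alternatives. DESeq2 called 3 of the 7, without Htr1f and Htr6 (adjusted p = 0.0560). Over all comparisons of spiny classes together DESeq2 called 11130 of 40237 gene tests. With nuclei gated one by one on marker UMIs, Htr4 was called higher (0.92) and Htr7 lower (-0.85) in Drd2-like nuclei by edgeR, and Htr1b was not called (adjusted p = 0.106).

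Chst9-like spiny neurons differed from Drd1-like ones in 7 of 7 genes, where 55.3% of the 13583 genes tested were called. Htr4 was lower by the widest margin (-3.63 ± 0.0650, log2, edgeR adjusted p = 2.13e-21), and Htr2c (-1.43 ± 0.0576), Htr6 (-1.29), Htr1b (-0.64), Htr2a (-0.61) and Htr1f (-0.60) were lower too. Htr7 was higher (1.95 ± 0.113, edgeR adjusted p = 1.64e-12), where the Drd1-like level is low (6.08 CPM). Both classes join unlike clusters, and Htr4 was higher in Col6a1-led Chst9-like (113 CPM) than in Plcz1-led Drd1-like nuclei (56.7 CPM). Htr7 was at 105 CPM in Col6a1-led and 10.0 CPM in Chst9-led nuclei. With doublets kept, the Htr7 difference was 0.07 and not called (edgeR adjusted p = 0.706). With gated nuclei Htr1f was not called (-0.23, edgeR adjusted p = 0.522). The median of the 7 was -0.64, against 0.0290 over all genes.

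Casz1-like spiny neurons differed from the same Drd1-like nuclei in 5 of 7 genes, where 35.6% of the 13039 genes tested were called. Htr2c (-2.76 ± 0.0984), Htr2a (-2.57 ± 0.116) and Htr4 (-1.52 ± 0.0692, log2, edgeR adjusted p = 1.22e-18) were lower, and Htr7 was higher (0.92 ± 0.170, edgeR adjusted p = 4.05e-05). For Htr4 the Casz1-like level (142 CPM) lay between those of the Plcz1-led (56.7 CPM) and Il20ra-led (551 CPM) Drd1-like clusters. Htr1f was also lower (-3.89), a value that rests on 6 UMIs and is no bound. With gated nuclei Htr4 turned to 0.56 (edgeR adjusted p = 0.000147) and Htr1f was not called (-0.46, edgeR adjusted p = 0.255). Htr6 (-0.05) and Htr1b (-0.25, edgeR adjusted p = 0.0880) were not called, but Htr1b was called lower without naloxone replicate 6 (-0.38, edgeR adjusted p = 0.00723, with 0.00723 to 0.434 over the alternatives). The median of the 7 was -1.52, against 0.0114 over all genes.

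Naloxone was compared with saline to ask which transcripts had moved 1 h after opioid receptors were blocked in rats with a heroin history. Over all nuclei 0 of the 7 receptor genes was called by edgeR's quasi-likelihood test, where 0.0346% of the 17361 genes tested were called, and DESeq2 called 0 as well. At an unadjusted p under 0.05 edgeR had 3 of 7, beside 14.2% of all genes. The log2 changes, naloxone over saline, were -0.24 ± 0.105 for Htr1b, -0.41 ± 0.149 for Htr1f, 0.10 ± 0.102 for Htr2a and -0.00102 ± 0.0670 for Htr2c. They were -0.13 ± 0.0604 for Htr4, -0.36 ± 0.104 for Htr6 and 0.47 ± 0.160 for Htr7. The median of the 7 was -0.13, against 0.00960 over all genes.

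Over all nuclei Htr7 was at 44.8, 43.2 and 46.4 CPM after saline and at 74.2, 45.2 and 67.8 CPM after naloxone. Naloxone replicates 4 and 6 were high and replicate 5 lay among the saline libraries. Without naloxone replicate 5 the change was 0.66 ± 0.0522 with an edgeR adjusted p of 0.0106 (0.0106 to 0.586 over the alternatives), in a fit that called 249 genes in place of 6. The shares of nuclei in clusters high in Htr7 are set beside this, and their part in the change was not tested. Cdh23-led nuclei made up 1.47%, 1.25% and 1.82% after saline and 2.25%, 1.58% and 2.38% after naloxone, and Gbx1-led nuclei 1.68%, 1.26% and 1.17%, and 2.74%, 1.79% and 2.02%. Ano2-led nuclei, the source of 15.7% of Htr7 UMIs, made up 3.29%, 3.12% and 0.973% after saline and 4.52%, 1.599% and 2.91% after naloxone. The groups overlapped in the Cdh23-led and Ano2-led shares and not in the Gbx1-led ones. Within the Cdh23-led cluster Htr7 was at 377 ± 32.2 CPM after saline and 389 ± 22.6 CPM after naloxone (SD, n = 3). In sums over all nuclei, more nuclei of a type and more RNA per nucleus cannot be told apart.

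In the 12 named classes edgeR called 0 of 55 receptor tests and DESeq2 0. The share of all genes called by edgeR was 0.236% in Drd1-like, 0.637% in Drd2-like, 0.0593% in Chst9-like and 0.111% in Casz1-like spiny neurons. It was 0.011% in Drd3 neuron-like, 0.0942% in Bnc2 GABA neuron-like, 0.853% in astrocyte-like, 0.317% in oligodendrocyte-like and 0.0782% in oligodendrocyte precursor-like nuclei. It was 0.0% in somatostatin interneuron-like, endothelial-like and committed oligodendrocyte precursor-like nuclei. At an unadjusted p under 0.05 there were 12 of 55, 8 higher and 4 lower after naloxone, and the lowest adjusted p was 0.149. All genes reached that level in 13.2% of tests in Drd1-like, 13.5% in Drd2-like, 9.10% in Chst9-like and 9.27% in Casz1-like nuclei. The share was 6.99% in Drd3 neuron-like, 8.3% in Bnc2 GABA neuron-like, 6.31% in somatostatin interneuron-like and 11.3% in astrocyte-like nuclei. In oligodendrocyte-like nuclei it was 7.99%, in their precursors 8.28%, in committed precursors 4.62% and in endothelial-like nuclei 3.37%.

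In the unnamed clusters, fitted after the values had been seen, edgeR called 0 of 39 receptor tests, 7 of them under an unadjusted p of 0.05, a level that all genes reached in 4.92% to 9.31% of tests in these clusters. DESeq2 was not run on them. The share of all genes called was 0.0366% in the Ano2-led, 0.246% in the Arhgap15-led, 0.0305% in the Cdh23-led, 0.0201% in the Gbx1-led and 0.033% in the Maf-led cluster. It was 0.0965% in the Slc17a8-led, 0.0544% in the Tafa4-led and 0.0% in the Pax6-led, Slc17a6-led and Slc5a7-led clusters, and 0.0887% in the Smoc2-led cluster, where no receptor gene was tested. Among these clusters the largest change of Htr2c was in the Slc17a6-led cluster, which carries the gene of a vesicular glutamate transporter. It was at 483, 382 and 507 CPM after saline and 253, 209 and 449 CPM after naloxone, overlapping through naloxone replicate 6 (-0.56 ± 0.195, log2, edgeR adjusted p = 0.748). Without that library the change was -0.99 ± 0.146 and was called (edgeR adjusted p = 0.00119). It was the 1 receptor call in these clusters with any library left out. In that setting it was 1 of 42 receptor tests, beside 75 of 90213 gene tests called over these clusters.

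**Figure D4:**
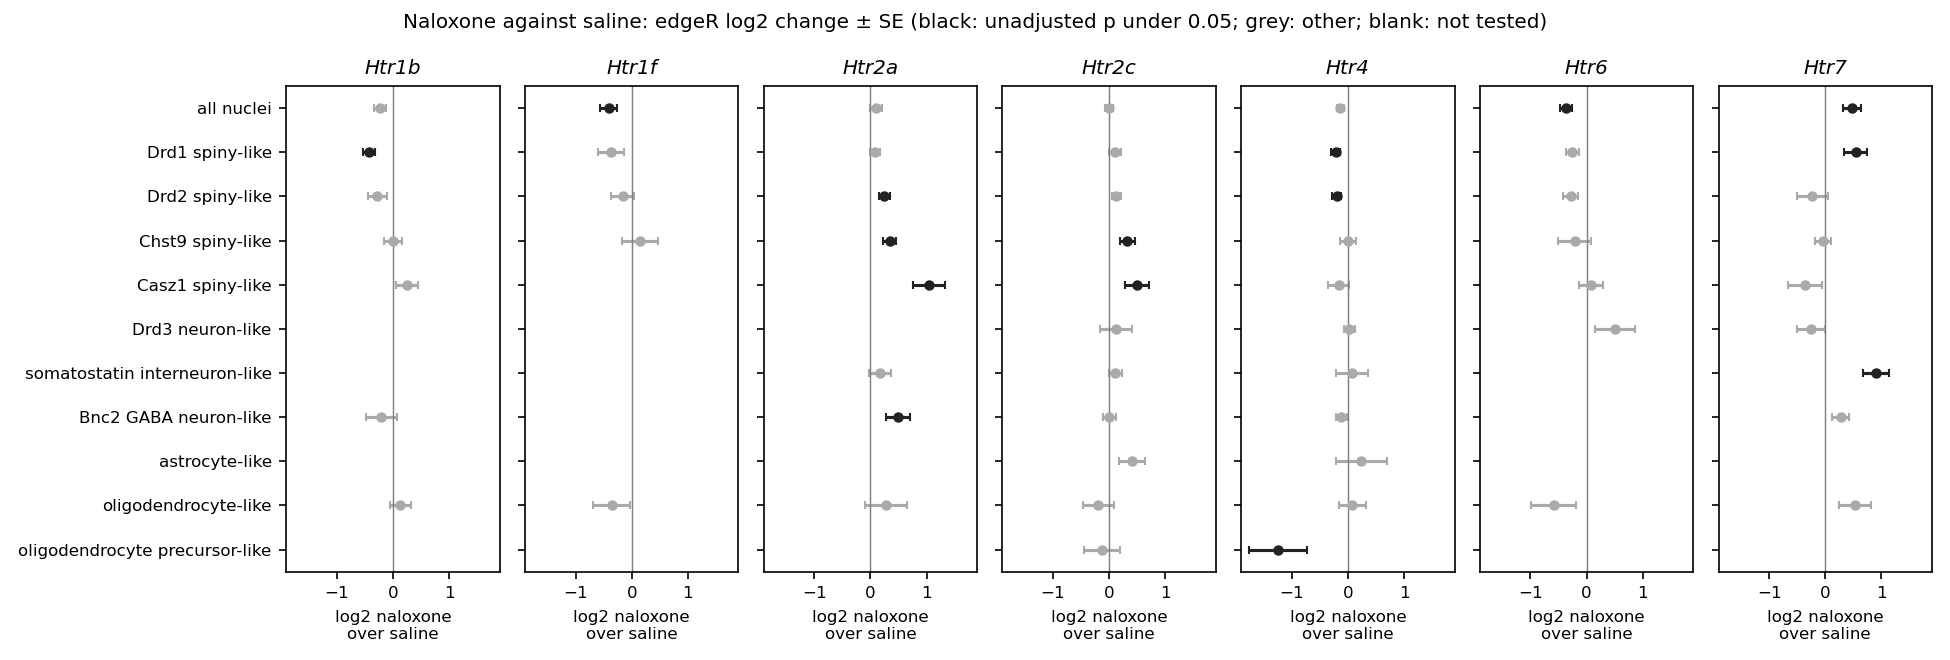
Log2 change of each receptor gene, naloxone over saline, with its standard error (edgeR), over all nuclei and in 10 named classes. Black marks an unadjusted p under 0.05, and no value passed adjustment; Htr2a lies to the right of 0 in every class where it was tested, and Htr4 to the left in Drd1-like and Drd2-like spiny neurons.

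Of the Gi-coupled genes, Htr1b in Drd1-like spiny neurons came nearest to the threshold. It was at 26.0, 22.6 and 23.1 CPM after saline and at 17.3, 20.4 and 15.7 CPM after naloxone. Each naloxone library was below each saline library, and the log2 change was -0.43 ± 0.109 (edgeR adjusted p = 0.149). Here and below, how many of all genes have groups that do not overlap was not counted. In 4 classes in which Htr1f was tested its changes ran from -0.37 to 0.15, with 0 under an unadjusted p of 0.05. In the unnamed Slc17a8-led cluster Htr1f was at 9.96, 8.28 and 8.83 CPM after saline and 2.38, 7.63 and 4.24 CPM after naloxone, on 84 UMIs in all. These groups did not overlap, and the change of -0.88 ± 0.359 was not called (log2, edgeR adjusted p = 0.474).

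Of the Gq-coupled genes, Htr2a had a change above 0 in 7 of 7 named classes tested, 4 of them with an unadjusted p under 0.05, and the classes share their libraries. In 6 unnamed clusters its changes went both ways, at 0.53 in Ano2-led, 0.31 in Tafa4-led, 0.04 in Cdh23-led, -0.18 in Gbx1-led, -0.24 in Slc17a8-led and -0.48 in Maf-led nuclei, and none was called by edgeR. In Drd2-like spiny neurons it was at 49.0, 61.1 and 62.4 CPM after saline and 63.5, 70.0 and 68.9 CPM after naloxone (0.25 ± 0.0978, log2, edgeR adjusted p = 0.293). In Chst9-like spiny neurons it was at 30.6, 37.1 and 34.0 CPM after saline and 45.7, 45.8 and 37.4 CPM after naloxone (0.34 ± 0.118, edgeR adjusted p = 0.354). In neither class did the groups overlap, and neither change passed the adjustment. In Bnc2 GABA neuron-like nuclei the change of 0.49 turned to -0.52 with doublets kept, -0.15 with at least 1000 genes per nucleus and -0.23 with another clustering seed.

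In Casz1-like spiny neurons Htr2a was at 3.31, 7.27 and 7.53 CPM after saline and 14.5, 13.7 and 10.8 CPM after naloxone, without overlap (1.04 ± 0.285, log2, edgeR adjusted p = 0.2002). Oligodendrocyte-like nuclei of the same libraries had 10.1, 19.6 and 8.68 CPM after saline and 9.24, 25.3 and 14.3 CPM after naloxone. Astrocyte-like nuclei had 2.47 CPM, and the part of RNA from other cells in the change was not tested. Htr2c in Casz1-like nuclei was at 50.1, 112 and 48.2 CPM after saline and 91.3, 104 and 99.1 CPM after naloxone. Saline replicate 2 overlapped the naloxone libraries, and the change was 0.49 ± 0.207 (edgeR adjusted p = 0.461). Without saline replicate 2 it was 1.02 ± 0.126 and was called (edgeR adjusted p = 0.00114, with 0.00114 to 0.999 over the alternatives). Where Htr2c is abundant, in Drd2-like nuclei, the means were 1369.9 ± 135 CPM after saline and 1476 ± 37.5 CPM after naloxone (SD, n = 3), with overlap.

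Of the Gs-coupled genes, Htr4 in Drd2-like spiny neurons was at 393, 420 and 442 CPM after saline and 363, 335 and 379 CPM after naloxone. These groups did not overlap, and the change was -0.20 ± 0.0790 (log2, edgeR adjusted p = 0.291). In Drd1-like spiny neurons Htr4 was at 379, 411 and 445 CPM after saline and 340, 384 and 343 CPM after naloxone, with overlap (-0.22 ± 0.0730, edgeR adjusted p = 0.245). Within that class the naloxone libraries lay lower in Il20ra-led nuclei (598 ± 8.39 against 505 ± 12.1 CPM, SD, n = 3) and at the saline level in Plcz1-led nuclei (57.2 ± 4.58 against 56.2 ± 2.20 CPM). That contrast between clusters was seen in the values given above and was not tested. In Drd3 neuron-like nuclei, where Htr4 is highest, the means were 1469.5 ± 93.5 CPM after saline and 1479 ± 144 CPM after naloxone.

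Htr6 in Drd2-like spiny neurons was at 17.0, 15.5 and 17.4 CPM after saline and 13.3, 12.5 and 14.5 CPM after naloxone, without overlap (-0.28 ± 0.133, log2, edgeR adjusted p = 0.374). Htr7 in somatostatin interneuron-like nuclei was at 31.95, 47.8 and 35.9 CPM after saline and 66.9, 75.4 and 75.4 CPM after naloxone. All naloxone libraries were above all saline ones there, and the change was 0.90 ± 0.232 (edgeR adjusted p = 0.283), on 197 UMIs in all. In Drd1-like spiny neurons Htr7 was at 4.34, 4.74 and 5.55 CPM after saline and 9.70, 6.12 and 6.02 CPM after naloxone, also without overlap (0.54 ± 0.209, edgeR adjusted p = 0.307). The share of Drd1-like nuclei with Htr7 is close to the oligodendrocyte-like one, as given above.

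**Figure D5:**
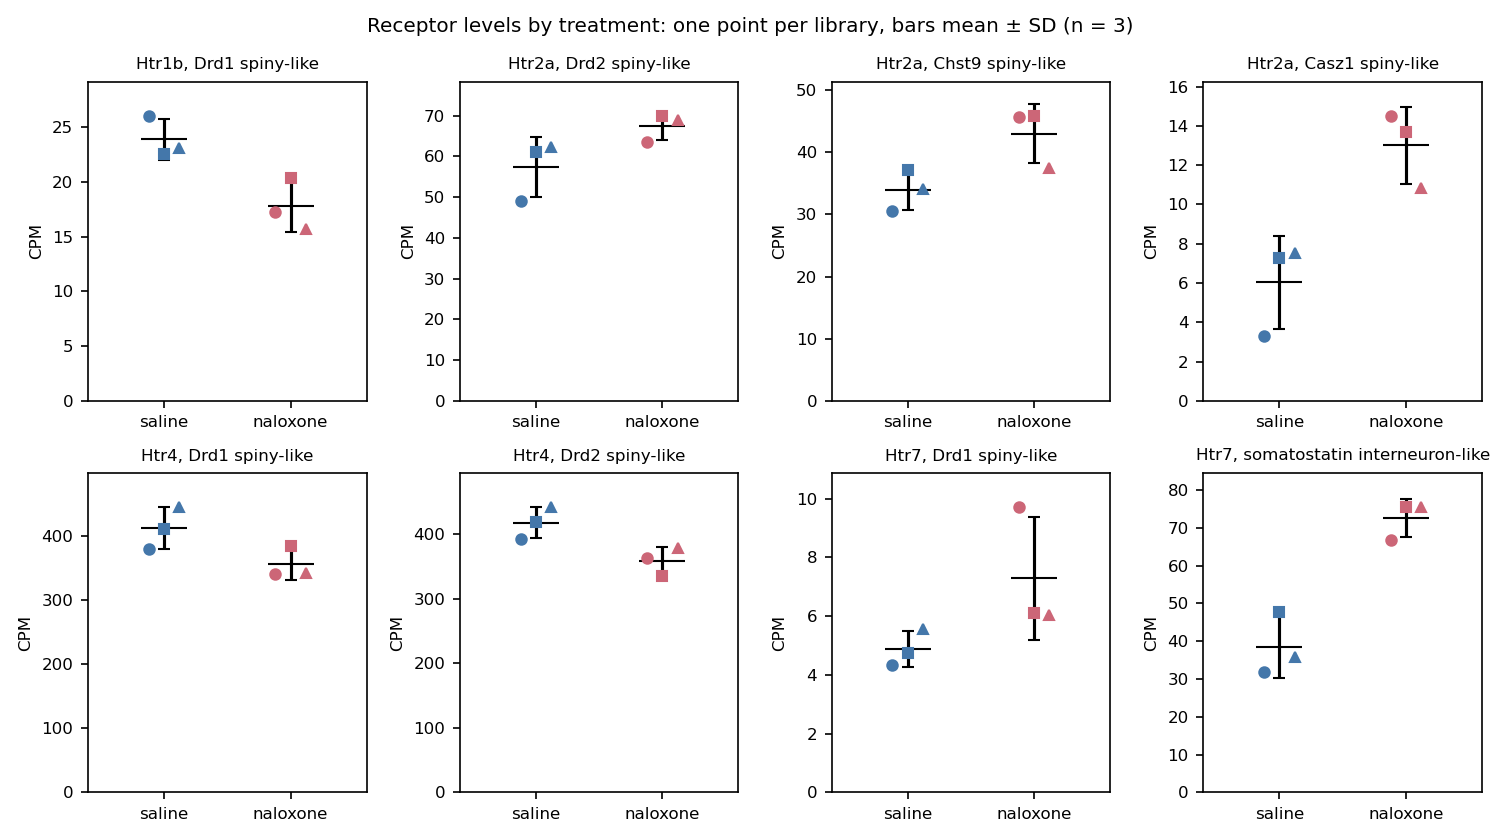
Receptor levels (CPM, axes from 0) by treatment in 8 pairs of gene and class, each point a library and bars the mean ± SD of 3 libraries. All 8 pairs had an unadjusted edgeR p under 0.05, so groups that lie apart are no separate evidence in them. The groups overlap for Htr4 in Drd1-like spiny neurons and are apart in the other 7 panels, and none of these changes passed the adjusted edgeR test. How many of all genes have groups that lie apart was not counted.

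Whether the treatment effect differed between Drd2-like and Drd1-like spiny neurons was read from an interaction of class and treatment, with libraries blocked. Of the 7 receptor genes 0 was called by edgeR and 0 by DESeq2, where 1.42% of the 13615 genes in the edgeR fit were called. An unadjusted p under 0.05 was reached by 2 of the 7, beside 9.94% of all genes. The Htr7 term was -0.79 ± 0.220 (log2, edgeR adjusted p = 0.0692), as Htr7 in Drd2-like nuclei was at 5.77, 6.60 and 7.4996 CPM after saline and 8.83, 3.58 and 4.92 CPM after naloxone. It was called at Leiden resolution 0.5 (-0.99, edgeR adjusted p = 0.0251), with doublets kept (-0.91) and without the filter on low counts (-0.78), and its adjusted p reached 0.901 under another alternative. Within the Drd2-like class Htr7 was at 65.3 CPM in the 429 Itga11-led nuclei and 1.17 CPM in the 4800 Drd2-led ones. How far the Htr7 term followed the number of Itga11-led nuclei per library was not tested. The Htr2a term was 0.16 ± 0.0775 (edgeR adjusted p = 0.497).

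Since each library holds both sexes, spiny nuclei were split by their Xist and Y-linked UMIs into 980 to 2166 nuclei per sex and library. Of the 7 receptor genes edgeR called 0 between female and male nuclei, where 0.0708% of the 14128 genes tested were called. DESeq2 called 0, and 0 had an unadjusted p under 0.05 in edgeR. The log2 differences, female over male, ran from -0.14 ± 0.102 for Htr4 to 0.18 ± 0.172 for Htr7. For Htr2c, an X-linked gene, the difference was -0.07 ± 0.0771.

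Other genes of the serotonin system were read from 4 lists. Among the other 7 receptor genes Htr3a, a subunit of the serotonin-gated ion channel, was highest in somatostatin interneuron-like nuclei (20.8 ± 7.36 CPM), and Htr1a, Htr1d, Htr3b and Htr5b were each under 1 CPM over all nuclei. Tph2, the neuronal enzyme of serotonin synthesis, had 0.435 CPM over all nuclei and 13.4 ± 3.67 CPM in the Maf-led cluster. Slc6a4, the serotonin transporter gene, had 0.187 CPM over all nuclei. The monoamine oxidase genes Maob and Maoa, whose products break serotonin down, were highest in the Smoc2-led cluster (747 ± 162 CPM) and in endothelial-like nuclei (311 ± 117 CPM). Of the effectors, Plcb1, a phospholipase downstream of Gq, was highest in Casz1-like spiny neurons (4638 ± 220.4 CPM) and Gnal, the striatal stimulatory G protein gene, in the same class (796 ± 56.2 CPM). Adarb1, an editing enzyme of the Htr2c transcript, had 167 CPM in Drd1-like spiny neurons.

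In the named classes 1 of 33 tests of synthesis, transport and breakdown genes passed with edgeR, 0 of 115 of G proteins and phospholipases, 0 of 111 of binding and editing proteins and 0 of 16 of other receptor genes. The median log2 changes were 0.07, -0.05, -0.05 and 0.05, and the medians over all genes were between -0.00933 and 0.00909 in these classes. The gene that passed was Ddc, which encodes aromatic amino acid decarboxylase, in Drd2-like spiny neurons. It was at 41.4, 37.3 and 35.3 CPM after saline and 53.5, 55.1 and 47.4 CPM after naloxone. Ddc rose by 0.47 ± 0.0944 (log2, edgeR adjusted p = 0.0440), and the call was lost without saline replicate 1 (adjusted p = 0.0787), saline replicate 2 (0.214) or saline replicate 3 (0.252), and without naloxone replicate 4 (0.0796), naloxone replicate 5 (0.0754) or naloxone replicate 6 (0.0572). In the unnamed clusters 0 of 20, 0 of 90, 0 of 96 and 0 of 6 tests of the same lists passed.

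The genes whose pattern over the 12 named classes was most like each receptor's were taken by Pearson's r of mean log2(CPM + 1) among 11903 genes, as a description over classes that share libraries and depth. Mbnl1 (0.91) and Slit2 (0.91) were nearest to Htr1b, and Tsga10 (0.82) and Npnt (0.81) to Htr1f. The gene nearest to Htr2a was Htr2c (0.93), followed by Serpini1 (0.93). Syt13 (0.93) and Mrap2 (0.93) were nearest to Htr2c. For Htr4 they were Mctp1 (0.95) and Lcor (0.91), both also highest in Drd3 neuron-like nuclei, with Mctp1 at 4251 CPM there. Fkbp1a (0.98) and Rasgrp1 (0.97) were nearest to Htr6, and Uimc1 (0.96) and Kdm4d (0.95), both highest in Bnc2 GABA neuron-like nuclei, to Htr7.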

How the data were processed

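UMI counts of 6 single-nucleus libraries were used as deposited by the authors, unnormalized. Per the submitters' processing notes Cell Ranger 9.0.1, Seurat 5.2.1 and R 4.4.0 were used with build mRatBN7.2; what was done with Seurat is not given in the sources used here. The labels state 44592 nuclei and the files hold 64260 barcodes, with 463 barcode sequences in more than 1 library. Nuclei with at least 500 genes and at most 5% mitochondrial counts were kept (61609). Doublets were called from simulated pairs (2762 nuclei, 4.48%) and removed; Xist and Y-linked UMIs met in 37.7% of them.

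Nuclei were clustered with scanpy 1.11.5 (3000 variable genes without the receptors, pathway lists and sex-linked genes, 40 components, 15 neighbours, Leiden resolution 1.0). A cluster was named when at least 3 and most of a class's measured markers passed. A marker passed with a UMI in at least 10% of nuclei and 1.5 times the median cluster's CPM. Clusters were set aside where at least 25% of nuclei held Xist and Y-linked UMIs or markers of other lineages were high. A cluster also stayed unnamed where its 10 leading genes held more markers of another class than its own. The same held for clusters of low depth with no own marker among those genes, such as the Arhgap15-led (microglia markers) and Smoc2-led (astrocyte markers) clusters. This naming rule was set after the clusters had been seen, so the classes are a reconstruction. The markers Tac1, Chat, Slc18a3, Itgam and Ccdc153 were absent from the gene table used here, and Gnas was left out because 2 genes share the symbol.

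Counts were summed per library and class and tested in classes with at least 20 nuclei in every library with edgeR 4.0.16 in R 4.3.3 (quasi-likelihood test, TMM, filterByExpr, Benjamini-Hochberg over all genes tested, threshold 0.05). Alternatives were DESeq2 1.42.0, RLE factors, no filter, each library left out, at least 1000 genes, doublets kept, Leiden resolution 0.5 and nuclei gated on markers, and, after the data were seen, another clustering seed. The edgeR step was tested on simulated data. Replicates of a group differed by 10.6 to 51.1 times counting noise (chi-square per degree of freedom), so no 2 replicates of a group agreed within sampling noise; libraries of different groups were not compared in this way. Named genes were the 7 receptors, list genes called after naloxone and the 2 genes most alike in pattern. The members, lists and markers were chosen with earlier results of these data known. Intervals are between libraries.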

Additional observations from a re-analysis of the deposited data

How the results depend on the processing

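Counts of receptor genes called after naloxone over all nuclei ran from 0 to 1 of 7 when each library was left out. The 1 came without naloxone replicate 5, where 249 of 17521 genes were called. In the named classes they also ran from 0 to 1, the 1 without saline replicate 2, where 92 of 122817 gene tests were called. With no filter 5 of 84 receptor tests were called, beside 1796 of 218941 gene tests. The 5 were Htr2a and Htr2c in Casz1-like, Htr2c in Chst9-like, Htr1b in Drd1-like and Htr4 in oligodendrocyte precursor-like nuclei. The class by treatment term had 1 call of 7 without the filter, 1 at Leiden resolution 0.5 and 1 with doublets kept. Of all genes, 294 of 21344, 161 of 13605 and 181 of 13570 were called in these settings. DESeq2 called 3 of 7 receptor genes between Drd2-like and Drd1-like nuclei. Over all comparisons of spiny classes together it called 15 of 21 receptor tests, beside 11130 of 40237 gene tests.

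Thinned to 2000 UMIs, the shares were 3.87% for Htr1b in Drd1-like, 1.38% for Htr1f and 3.16% for Htr6 in Drd2-like, 13.2% for Htr2a and 84.3% for Htr2c in somatostatin interneuron-like, 90.6% for Htr4 in Drd3 neuron-like and 22.4% for Htr7 in Bnc2 GABA neuron-like nuclei. The last was 8.78% with at least 1000 genes and 9.41% with doublets kept, against 12.7%.

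Signs that turned belonged mostly to values near 0. Htr2c over all nuclei ran from -0.0449 to 0.0530 with a library left out and was 0.00362 with at least 1000 genes. Between Drd2-like and Drd1-like nuclei Htr7 ran from -0.0413 to 0.18 with a library left out and was -0.22 at resolution 0.5, -0.34 with at least 1000 genes, -0.18 with doublets kept and -0.85 when gated. Htr4 ran from -0.00546 to 0.0584 with a library left out and was -0.00966 at resolution 0.5, -0.0144 with at least 1000 genes and -0.0188 with doublets kept. Between Casz1-like and Drd1-like nuclei gated Htr4 was 0.56, and Htr6 ran from -0.11 to 0.00141 with a library left out and was 0.12 with at least 1000 genes, 0.0036 with doublets kept and 0.12 when gated. After naloxone Htr2a in Bnc2 GABA neuron-like nuclei was -0.15 with at least 1000 genes, -0.52 with doublets kept and -0.23 with another seed. Htr4 in oligodendrocyte precursor-like nuclei was not near 0, at -1.24 ± 0.512 (log2, edgeR adjusted p = 0.566) on 203 UMIs in all. That was the widest receptor change in the named classes, and it turned to 0.0504 when gated. The cause was not tested. Of the single-gene values under alternatives, 526 kept direction and side of the threshold, 23 reversed, 13 gained and 21 lost a call.

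Counts of all genes called moved more. Over all nuclei edgeR called 6, DESeq2 405, RLE 2, no filter 41, at least 1000 genes 0, doublets kept 14, and 0 to 249 with a library left out. In the named classes the sum was 284, against 565 with DESeq2, 1796 with no filter, 136 when gated and 57 to 340 with a library left out. The class by treatment count was 193, against 53 with DESeq2, 294 with no filter, 11 when gated and 93 to 262 with a library left out. Between spiny classes it was 15321, against 8727 when gated and 10218 at resolution 0.5, where 1 class was not found. Between sexes it was 10, against 16 with DESeq2 and 16 with no filter.

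No paired analysis was possible because the saline and naloxone libraries share no replicate numbers. The class with the highest mean stayed the same for 6 of 7 genes under the alternatives run; Htr7 moved from Bnc2 GABA neuron-like to somatostatin interneuron-like nuclei at resolution 0.5 and when gated. Precision is lowest for the sparse genes, Htr1f with 1408 and Htr6 with 2723 UMIs in all nuclei; the smallest change detectable in them was not tested.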
